A study of Mus musculus with 8 samples.

Results

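G9a and GLP, encoded by Ehmt2 and Ehmt1, and 5 genes of their zinc finger and effector partners (Wiz, Zfp644, Cdyl, Cdyl2 and Zfp462) were followed in RNA of Hepa 1-6 cells, per gene and per transcript. The 7 genes were chosen by name, as the targeted gene, its paralog and partners of the complex, not by a threshold on measured values. They are 7 of 47434 genes in the deposited table, and 69 of its 114332 transcripts that matched the annotation belong to them. The study sequenced poly-A RNA from 4 libraries of Hepa 1-6 cells with a G9a knockout and from 4 libraries of wild-type Hepa 1-6 cells. Hepa 1-6 is an established mouse hepatoma line. The labels give no other genotype, no treatment, no knockout method and no clone number. Whether the 4 libraries of a genotype are from separate cultures is not stated either, so the p-values measure only the spread between libraries, which may be technical.

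As background, G9a and GLP are paralogous SET-domain enzymes that write mono- and dimethylation at H3K9, largely as a heterodimer. WIZ and ZNF644, the human counterpart of Zfp644, are zinc finger proteins that bind the heterodimer and bring it to DNA. CDYL and CDYL2 carry a chromodomain that binds methylated histone H3, CDYL joins G9a to the repressor REST, and mouse Zfp462 binds G9a and GLP in embryonic stem cells.

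At the level of whole genes, Ehmt2 fell to 37.6% of its wild-type level in the knockout libraries, while Ehmt1, Wiz and Cdyl fell far less and Zfp644, Cdyl2 and Zfp462 did not pass the test. Thus 4 of the 7 genes fell and none rose at an adjusted p under 0.05 in the quasi-likelihood test of edgeR with Benjamini-Hochberg adjustment. In the same test 47.2% of all 15840 genes tested were called, 23.6% as lower in the knockout and 23.6% as higher. Scaling by library sizes alone changed that split to 2742 lower and 4543 higher genes. The median log2 fold change of the 7 genes was -0.20, beside 0.00 over all genes tested. Without Ehmt2, which the knockout targeted, the count of falling genes is 3 of 6. The groups did not overlap for 2 of the 7 genes, Ehmt2 and Ehmt1, where 21.4% of all genes tested had every knockout library below every wild-type library. In RNA of whole cultures, fewer cells that express a gene and less RNA per cell cannot be told apart.

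**Figure D1:**
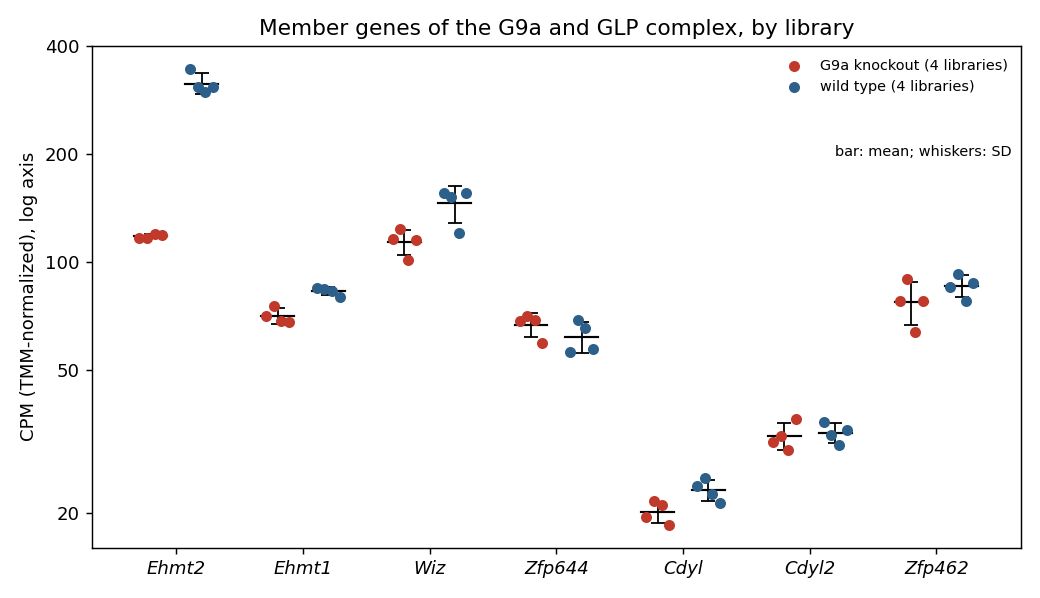
Levels of the 7 genes in CPM (counts scaled to a common library total, TMM-normalized, log axis) in each G9a knockout library (left of each pair) and each wild-type library (right), with the mean and SD of the 4 libraries. Ehmt2 stands at 118.0 CPM in the knockout against 314.2 CPM in the wild type. The next largest difference in means is that of Wiz, at 113.9 CPM in the knockout against 145.8 CPM in the wild type.

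The libraries held between 58256100 and 75025236 counts, and a count of 0 allows up to 3 counts, or 0.04 to 0.0515 CPM. Of 10 hepatocyte and hepatoma markers, Alb, Ttr, Hnf4a and Serpina1a were at 0 in all 8 libraries, and Afp, Krt8 and Krt18 were the 3 that were high enough to test. The summed level of that list was 1327 to 1487 CPM in the knockout and 1160 to 1245 CPM in the wild type. The keratins Krt8 (800.7 CPM in the knockout, 721.1 CPM in the wild type) and Krt18 (475.1 and 489.1 CPM) made up most of it. Apoa1, Apob and Trf averaged at most 0.108 CPM in either group. Afp, an oncofetal liver protein, averaged 133.3 ± 11.9 CPM in the knockout against 5.77 ± 0.567 CPM in the wild type (SD, n = 4 each). Of 8 fibroblast and stellate cell markers, 5 of 7 tested rose, where 23.6% of all genes tested rose. The 8 markers summed to 431.7 to 463.9 CPM in the knockout against 109.4 to 119.6 CPM in the wild type, with Lrat at 0. Most of that sum was Col3a1, at 428.6 ± 12.8 CPM in the knockout and 106.8 ± 4.83 CPM in the wild type, while Pdgfra (-0.60, adjusted p = 0.0687) and Pdgfrb (-1.85, adjusted p = 0.178) had negative log2 differences that did not pass. Of 6 leukocyte markers, Cd3e, Adgre1 and Itgam were at 0, and the sum was 7.39 to 8.24 CPM in the knockout against 4.77 to 7.1 CPM in the wild type. The 5 endothelial markers summed to 4.78 to 5.98 CPM in the knockout and 2.54 to 3.57 CPM in the wild type. Whether these differences bear on the levels of the 7 genes was not tested.

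Ehmt2 (ENSMUSG00000013787, chr17:34898469-34914052, plus strand, GRCm38) encodes G9a itself and checks the genotype labels. Its counts were 8976, 8083, 7122 and 8479 in the knockout libraries, against 21175, 20294, 20535 and 19314 in the wild-type libraries. Every knockout library lay far below every wild-type library, and none lay near 0. On the log2 scale Ehmt2 changed by -1.41 ± 0.05 (SE; 4 libraries per group; edgeR, adjusted p = 3.82e-10), and 1.51% of all genes tested had a lower value. The spread of Ehmt2 among the knockout libraries was small, with a coefficient of variation of the CPM of 1.31% in the knockout and 6.77% in the wild type. Counts per transcript do not locate the altered site, and remaining RNA is no measure of remaining protein.

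Ehmt2 has a pair of annotated first exons with a promoter each, and its long transcripts differ by the first exon and by an internal exon. The promoters are shown because the transcripts that begin at them are compared below. Both are on the plus strand in GRCm38.p6, run from 250 bases before to 50 bases after the RefSeq start, and are printed 5′ to 3′ with CACGTG, the E-box palindrome, and GGGCGG or its complement CCGCCC, the GC box, in capitals. The upstream one lies at chr17:34898224-34898523 and the downstream one at chr17:34898720-34899019.
Ehmt2 upstream promoter: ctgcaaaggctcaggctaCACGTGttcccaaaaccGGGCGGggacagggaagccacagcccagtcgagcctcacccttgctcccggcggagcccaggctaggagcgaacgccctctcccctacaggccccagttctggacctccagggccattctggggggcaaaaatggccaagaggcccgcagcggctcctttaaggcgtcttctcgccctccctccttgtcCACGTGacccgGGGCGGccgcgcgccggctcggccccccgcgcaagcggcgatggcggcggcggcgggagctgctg
Ehmt2 downstream promoter: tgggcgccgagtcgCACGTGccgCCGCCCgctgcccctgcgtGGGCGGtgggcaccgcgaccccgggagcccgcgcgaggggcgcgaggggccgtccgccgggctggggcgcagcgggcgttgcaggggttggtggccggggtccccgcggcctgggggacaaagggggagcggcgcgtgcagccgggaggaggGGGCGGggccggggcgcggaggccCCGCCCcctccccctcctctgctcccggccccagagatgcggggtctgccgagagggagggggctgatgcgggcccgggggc
The upstream promoter held 2 CACGTG and 2 GC boxes and was 70.3% G and C, and the downstream promoter held 1 CACGTG and 4 GC boxes and was 82.7% G and C. Of all 32851 RefSeq promoters of this length, 7.15% held CACGTG, 35.7% held GGGCGG on either strand and 3.45% held both. These are letter matches, not measured sites.

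The 4 long protein-coding transcripts Ehmt2-201, 202, 203 and 204 together took between 95.8% and 97.6% of the counts of the gene in every library. Ehmt2-203, the most abundant, stood at 65.2, 45.6, 99.9 and 85.5 CPM in the knockout and at 221.4, 198.4, 164.6 and 200.0 CPM in the wild type. The groups did not overlap, and Ehmt2-203 fell by 1.40 on the log2 scale (SE 0.23, n = 4 per group; edgeR on transcripts, adjusted p = 0.00676; adjusted p = 0.0522 with the replicate number as a block). Ehmt2-201 stood at 35.0, 47.7, 3.25 and 7.04 CPM in the knockout and at 70.7, 82.3, 88.2 and 45.9 CPM in the wild type. The knockout libraries split into a higher and a lower pair, the groups overlapped at one library, and the log2 difference of -1.63 ± 0.77 did not pass (adjusted p = 0.258).

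The upstream-start transcripts were less abundant. Ehmt2-202 had 16.0 ± 4.07 CPM in the knockout and 27.5 ± 13.6 CPM in the wild type (log2 difference -0.78, adjusted p = 0.301). Without the second wild-type library the difference of Ehmt2-202 was -1.06 and passed (adjusted p = 0.0463), and without the fourth it was -0.49. Ehmt2-204 had 1.67, 1.13, 0.68 and 4.46 CPM in the knockout and 7.40, 6.26, 7.86 and 8.28 CPM in the wild type (log2 difference -1.91 ± 0.55, adjusted p = 0.0684). The groups of Ehmt2-204 did not overlap, and without the fourth knockout library its difference was -2.68 (adjusted p = 0.00619). On all 8 libraries DESeq2 (-1.91, adjusted p = 0.00411) and limma-voom (-2.23, adjusted p = 0.0162) called it. Of the counts of the 4 long transcripts, those with the downstream first exon, Ehmt2-201 and 203, held 87.7%, 83.7%, 88.1% and 78.2% in the knockout and 88.2%, 94.5%, 88.2% and 82.9% in the wild type. Both groups thus drew most of their Ehmt2 counts from the downstream start, and the ranges overlapped.

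Ehmt2-201 and 204 carry an exon of 102 bases that 202 and 203 skip. This alternative exon has been described in mouse and human G9a RNA, and skipping it leaves the reading frame intact because 102 bases are 34 codons. It is shown in capitals with 20 bases of the transcript on either side (GENCODE M21, chr17:34905610-34905711, plus strand, 5′ to 3′).
Ehmt2 alternative exon: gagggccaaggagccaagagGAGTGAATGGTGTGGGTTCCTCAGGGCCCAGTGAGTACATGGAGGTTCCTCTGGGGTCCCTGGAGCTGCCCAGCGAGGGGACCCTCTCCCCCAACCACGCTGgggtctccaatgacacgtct
Transcripts with this exon held 32.1%, 43.9%, 3.35% and 9.71% of the long-transcript counts in the knockout libraries, and 23.6%, 29.8%, 33.5% and 18.2% in the wild-type libraries. The knockout libraries lay on both sides of the wild-type range. The means were 22.2% ± 19 in the knockout and 26.3% ± 6.75 in the wild type (SD, n = 4 each). The grouping by exon was chosen after the values were seen and was not tested.

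The largest change among the 10 Ehmt2 transcripts tested was the fall of a minor one, Ehmt2-206. It is annotated as protein coding, with 1325 bases in 10 exons from the middle of the gene, of which 1295 also lie in Ehmt2-203 and 30 do not. The 30 bases lengthen an exon at its start, and are printed in capitals before the rest of that exon (chr17:34906953-34906982 for the capitals, plus strand, 5′ to 3′), because they are the bases of this transcript that Ehmt2-203 lacks.
Ehmt2 lengthened exon: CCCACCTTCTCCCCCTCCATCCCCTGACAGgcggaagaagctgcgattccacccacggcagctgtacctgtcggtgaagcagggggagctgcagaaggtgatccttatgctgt
Ehmt2-206 had 20, 16, 8 and 10 counts in the knockout libraries, against 218, 168, 257 and 168 in the wild-type libraries. The highest knockout count was far under the lowest wild-type count. It changed by -3.98 ± 0.33 on the log2 scale (SE; edgeR on transcripts, adjusted p = 0.000296). Its share of the gene's counts was 0.163% ± 0.056 in the knockout and 0.995% ± 0.192 in the wild type (SD; exact two-sided permutation test, p = 0.0286, the smallest that 4 against 4 libraries allow). The test of unequal change within the gene did not call it (log2 usage difference -2.60, adjusted p = 0.304 with diffSpliceDGE).

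The sixth Ehmt2 transcript above 1 CPM, the retained-intron transcript Ehmt2-205 at the 3′ end of the gene, had 2.22, 1.59, 2.06 and 2.13 CPM in the knockout and 3.52, 2.44, 3.23 and 2.39 CPM in the wild type. The groups did not overlap by a small margin, and the log2 difference of -0.53 ± 0.22 did not pass (adjusted p = 0.196). Its share of the gene's counts was higher in the knockout, at 1.67% ± 0.209 in the knockout and 0.928% ± 0.158 in the wild type (two-sided exact permutation test, p = 0.0286). Tests of unequal change within the gene did not call it (log2 usage difference 0.85 with diffSpliceDGE, and 0.95 with adjusted p = 0.689 with limma's diffSplice). The remaining 8 Ehmt2 transcripts had at most 99 counts in a library. One of them, the processed transcript Ehmt2-212 from the 5′ part of the gene, had 71, 99, 44 and 48 counts in the knockout and 61, 92, 58 and 26 counts in the wild type (log2 difference 0.07 ± 0.41, adjusted p = 0.946). Neither test of unequal change called it (adjusted p = 0.448 with limma's diffSplice), so a departure from the gene is not shown. Ehmt2-208 (-0.39), 210 (-1.09) and 213 (0.12) were tested and not called either.

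**Figure D2:**
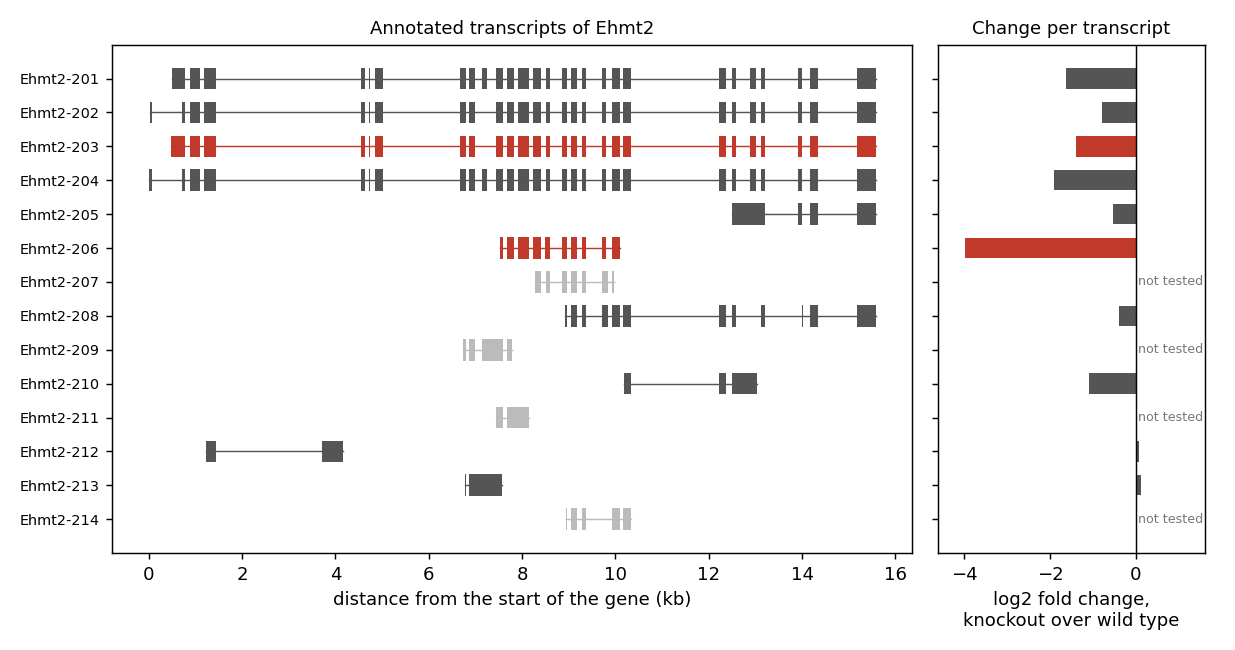
Exons of the 14 annotated Ehmt2 transcripts against the distance from the start of the gene in kilobases (left), and the log2 fold change of each tested transcript, knockout over wild type (right). Red marks the transcripts that fell (Ehmt2-203 at -1.40 and Ehmt2-206 at -3.98), dark grey those tested without a call and light grey those too low to test.

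Ehmt1 (ENSMUSG00000036893, chr2:24789928-24919614, minus strand) encodes GLP. Its counts were 5456, 5229, 4072 and 4844 in the knockout and 5200, 5572, 5730 and 5045 in the wild type. Scaled to 70.9, 75.5, 68.5 and 67.9 CPM in the knockout and 84.8, 84.3, 83.1 and 80.1 CPM in the wild type, the groups did not overlap, and the difference was far smaller than that of Ehmt2. The log2 fold change was -0.23 ± 0.05 (adjusted p = 0.00157). The 132 tested genes within 5 Mb of Ehmt1 had a median of 0.02, while the 1279 tested genes of chromosome 2 as a whole had a median of -0.35.

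Per unit of transcript length, in TPM (transcript counts divided by annotated length and scaled to a fixed sum per library), the ratio of Ehmt2 to Ehmt1 was 2.33, 2.26, 2.40 and 2.41 in the knockout libraries, against 5.45, 4.84, 4.96 and 5.05 in the wild-type libraries. The ratio was therefore lower in each knockout library but still above 1, at 2.35 ± 0.0696 in the knockout and 5.08 ± 0.266 in the wild type (SD, n = 4 each; exact two-sided permutation test, p = 0.0286, the smallest possible). Ehmt1 lay at 27.5 to 30.9 TPM in the knockout and 31.4 to 33.7 TPM in the wild type. The lower ratio and its p-value therefore restate the fall of Ehmt2 and are no separate result. The RNA of the targeted enzyme thus stayed above that of its partner in both groups.

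The Ehmt1 counts were divided mainly between a pair of coding transcripts. Ehmt1-210 averaged 49.1 ± 9.16 CPM in the knockout and 47.4 ± 6.39 CPM in the wild type (log2 difference 0.05, adjusted p = 0.897), and this sign turned when 1 library was left out. Ehmt1-202 stood at 26.6, 4.46, 9.10 and 8.41 CPM in the knockout and at 27.7, 27.3, 21.6 and 29.3 CPM in the wild type. One knockout library lay among the wild-type libraries and the other 3 lay well below them. The log2 difference was -1.12 ± 0.50 (adjusted p = 0.225), and without the first knockout library it was -1.85 (adjusted p = 0.00975). All 4615 bases of Ehmt1-202 also lie in Ehmt1-210, and how the counting divided reads that fit both transcripts is not known.

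A stretch of 21 coding bases at the start of an exon is present in Ehmt1-201, 204 and 210 and absent from 202, 203 and 205. Other coding differences exist, among them an exon of 144 bases that 201 and 204 lack. The stretch is printed in capitals before the rest of the exon (chr2:24863909-24863929 for the capitals, minus strand, 5′ to 3′), because Ehmt1-210 has it and 202 does not.
Ehmt1 exon start: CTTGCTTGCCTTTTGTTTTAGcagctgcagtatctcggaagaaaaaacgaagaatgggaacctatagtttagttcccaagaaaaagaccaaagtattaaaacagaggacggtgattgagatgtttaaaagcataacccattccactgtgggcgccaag
The stretch adds 7 codons. Transcripts with it held 60.8%, 88.4%, 78.4% and 80.7% of the Ehmt1 counts of these 6 transcripts in the knockout, against 61.2%, 63.6%, 70.9% and 59.9% in the wild type. Again 3 knockout libraries lay above all wild-type libraries and the first knockout library lay within them. This sum was formed after the values were seen and carries no test. The 4 lesser Ehmt1 transcripts above 1 CPM that were followed (201, 203, 204 and 205) stayed under 7 CPM in every library, and edgeR called none of them as lower or higher.

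Wiz (ENSMUSG00000024050, chr17:32354055-32389439, minus strand) encodes the zinc finger partner that binds the G9a and GLP heterodimer. It stood at 115.5, 123.4, 101.3 and 115.4 CPM in the knockout and at 155.5, 151.9, 120.2 and 155.7 CPM in the wild type. Wild-type library 3 lay below the highest knockout library, and the other 3 wild-type libraries lay above all knockout libraries. Wiz fell by 0.36 on the log2 scale (SE 0.08, adjusted p = 0.00295), and without wild-type library 3 the difference was -0.44 (adjusted p = 0.000138). Counted over its protein-coding transcripts alone, the difference was -0.63 (adjusted p = 0.00844). That sum includes Wiz-203, which had 0, 2166, 0 and 1871 counts in the wild-type libraries and 0, 266, 13 and 261 in the knockout libraries.

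Wiz-207, its main coding transcript, had 61.6, 69.9, 59.5 and 58.0 CPM in the knockout and 89.8, 91.4, 67.4 and 82.8 CPM in the wild type. It fell by 0.41 (SE 0.11, adjusted p = 0.0492), a call that was lost in most alternatives, with adjusted p up to 0.126. The other 4 Wiz transcripts above 1 CPM switched between libraries of a group. Wiz-202, a retained-intron transcript, had 15.7, 0, 0 and 0 CPM in the knockout and 19.6, 24.2, 0 and 21.9 CPM in the wild type. Wiz-203, a coding transcript, had 0, 3.80, 0.221 and 3.76 CPM in the knockout and 0, 32.6, 0 and 29.4 CPM in the wild type. Both transcripts thus stood at 0 CPM in some libraries and over 10 CPM in others of the wild type. Wiz-204 and Wiz-210, annotated for nonsense-mediated decay, had higher means in the knockout. Wiz-204 had 13.2, 2.09, 30.7 and 3.07 CPM in the knockout and 0, 0.226, 6.88 and 0 CPM in the wild type. Wiz-210 had 27.0, 45.3, 11.3 and 52.8 CPM in the knockout and 43.6, 0.722, 44.9 and 19.5 CPM in the wild type. EdgeR called none of these 4 transcripts. Over Wiz as a whole the coefficient of variation was 8.09% in the knockout and 11.8% in the wild type, against medians of 108.2% and 77.8% over its 5 transcripts in the same groups.

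**Figure D3:**
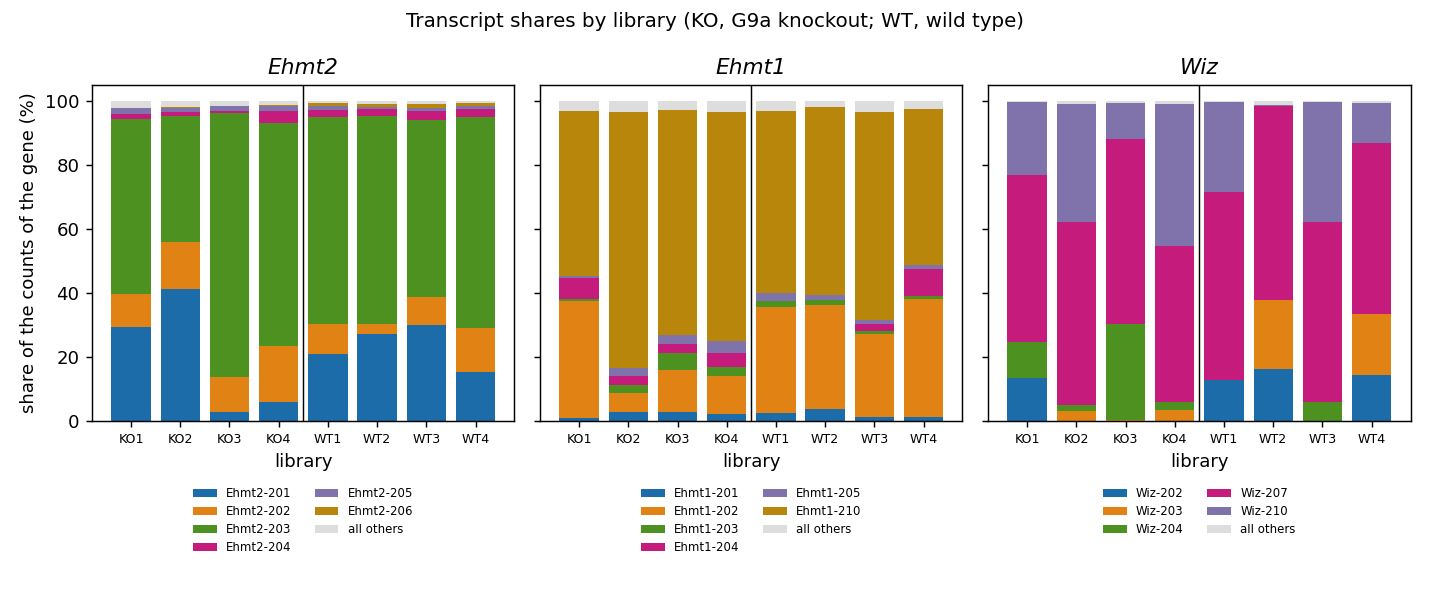
Share of each gene's counts, in percent, taken by its transcripts above 1 CPM in the 4 knockout (KO) and 4 wild-type (WT) libraries, for Ehmt2, Ehmt1 and Wiz. Ehmt2-203 ranges from 39.4% to 82.5% among knockout libraries and from 55.5% to 65.8% among wild-type libraries, and Wiz-203 is at 21.6% and 19.1% in a pair of wild-type libraries and 0 in the other two.

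Zfp644 (ENSMUSG00000049606, chr5:106616739-106697287, minus strand) was the one gene of the 7 with a positive difference. It had 68.4, 70.8, 68.7 and 59.3 CPM in the knockout and 56.1, 68.8, 65.6 and 57.3 CPM in the wild type. The groups overlapped widely, and the log2 difference of 0.11 ± 0.08 did not pass (adjusted p = 0.268). Its surroundings were higher: the 106 tested genes within 5 Mb had a median of 0.41, so Zfp644 lay 0.31 below its neighbours (-0.31), and the 1158 tested genes of chromosome 5 had a median of 0.37.

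Its coding transcripts differ by a segment of 93 bases that Zfp644-204 keeps and Zfp644-201 and 205 splice out. The segment begins with GT and ends with AG and is in capitals with 20 bases on either side (chr5:106636324-106636416, minus strand, 5′ to 3′), shown because the split between the long transcripts is a choice over these bases.
Zfp644 kept segment: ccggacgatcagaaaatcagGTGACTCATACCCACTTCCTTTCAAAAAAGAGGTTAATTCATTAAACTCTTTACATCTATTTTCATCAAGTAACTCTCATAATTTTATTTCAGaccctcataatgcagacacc
Zfp644-204 averaged 31.6 ± 3.99 CPM in the knockout and 24.3 ± 2.71 CPM in the wild type (log2 difference 0.38 ± 0.12, adjusted p = 0.0937 with edgeR and 0.0376 with DESeq2). Of the counts of these 3 transcripts, 204 held 49.7%, 58.6%, 50.6% and 48.6% in the knockout and 48.7%, 45.5%, 35.5% and 45.9% in the wild type. The groups met at their edges, and the sum carries no test. Zfp644-205, without the segment, averaged 22.0 ± 8.36 CPM in the knockout and 28.8 ± 6.62 CPM in the wild type (log2 difference -0.38, adjusted p = 0.554).

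Zfp462 (ENSMUSG00000060206, chr4:54945048-55083563, plus strand), the third zinc finger gene, had 77.7, 89.6, 63.8 and 77.6 CPM in the knockout and 85.1, 92.8, 77.9 and 87.4 CPM in the wild type. The groups overlapped, and the log2 difference of -0.15 ± 0.09 did not pass (adjusted p = 0.173). It passed without the second knockout library (-0.22, adjusted p = 0.0379) and with the replicate number as a block (-0.16, adjusted p = 0.0343). Its longest transcript, Zfp462-203, held 93% ± 2.16 of its counts in the knockout and 92.6% ± 2.55 in the wild type.

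Cdyl (ENSMUSG00000059288, chr13:35659833-35874063, plus strand), the chromodomain partner, was the least abundant of the 7. It had 19.5, 21.5, 21 and 18.5 CPM in the knockout and 23.7, 25, 22.5 and 21.3 CPM in the wild type. The lowest wild-type library lay within the knockout range. Cdyl fell by 0.20 on the log2 scale (SE 0.07, adjusted p = 0.0374), close to the threshold, and the call was lost in 5 of the 8 fits that left out a library and with library sizes alone (-0.12, adjusted p = 0.206). Its transcript from the downstream start, Cdyl-202, held most of its counts and had 19.8, 19.4, 18.6 and 17.6 CPM in the knockout and 23.3, 24.7, 20.4 and 21 CPM in the wild type, with no overlap (log2 difference -0.25 ± 0.09, adjusted p = 0.158 with edgeR and 0.0457 with DESeq2).

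Cdyl2 (ENSMUSG00000031758, chr8:116574400-116732991, minus strand), its paralog, has a single transcript in the table. It had 31.4, 32.8, 29.9 and 36.6 CPM in the knockout and 35.8, 32.9, 30.8 and 34.1 CPM in the wild type. The ranges lay over each other, and the log2 difference was -0.03 ± 0.07 (adjusted p = 0.755), with its sign turned to 0.05 by library sizes alone.

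In the transcript test, 3 of the 40 tested transcripts of the 7 genes were called, Ehmt2-203, Ehmt2-206 and Wiz-207, all lower, and 0 were higher. Over all 37987 transcripts tested, 11.3% were called and 5.02% were called lower. Of the 27 transcripts named by level, 5 had groups that did not overlap, each lower in the knockout, beside 9.1% of all transcripts tested. They were Ehmt2-203, 204, 205 and 206, of the gene that the knockout targeted, and Cdyl-202. Ehmt2 held 6 of the 27 named and 10 of the 40 tested transcripts, and 2 of the 3 calls. Outside Ehmt2, only Wiz-207 was called and only Cdyl-202 had groups without overlap. Unequal change within a gene was called for 0 of 39 transcripts by diffSpliceDGE, where 0.171% of 29823 transcripts were called. Limma's diffSplice, added after the data were seen, called 3 of the 39, beside 2.48% overall. These were Ehmt1-202 (log2 usage difference -1.58, adjusted p = 0.0255), Ehmt1-204 (4.28, adjusted p = 0.046) and Zfp644-201 (3.51, adjusted p = 0.0271). Ehmt1-204 and Zfp644-201 both had a count of 0 in at least 1 wild-type library.

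Levels of the genes were compared with each other in TPM. In the knockout the order was Ehmt2 at 67.4 ± 1.75, Wiz at 56.5 ± 5.6, Ehmt1 at 28.8 ± 1.6, Zfp644 at 28.1 ± 2.83, Cdyl2 at 27.6 ± 2.6, Zfp462 at 16.8 ± 3.01 and Cdyl at 11.5 ± 1.01 TPM (SD, n = 4). In the wild type it was Ehmt2 at 165.5 ± 12.3, Wiz at 74.5 ± 13.9, Ehmt1 at 32.6 ± 1.21, Cdyl2 at 26.9 ± 1.87, Zfp644 at 24.3 ± 2.81, Zfp462 at 17.8 ± 1.34 and Cdyl at 12.6 ± 0.916 TPM. Ehmt2 led in both groups, ahead of Wiz without overlap. In the knockout the library ranges of Ehmt1, Zfp644 and Cdyl2 overlapped, and in the wild type those of Cdyl2 and Zfp644 did, so those neighbours in the order did not differ beyond their spread.

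Set against their chromosomal neighbours, Ehmt2 stood apart most in size. The 183 tested genes within 5 Mb of Ehmt2 had a median log2 fold change of 0.02, and 3 of them lay lower than Ehmt2. Wiz, on the same chromosome, lay among 224 tested neighbours with a median of 0.03, and 36 of them were lower than it. Less their neighbours' medians, the differences were -1.43 for Ehmt2, -0.26 for Ehmt1, -0.38 for Wiz, -0.40 for Cdyl, 0.02 for Cdyl2 and -0.17 for Zfp462.

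**Figure D4:**
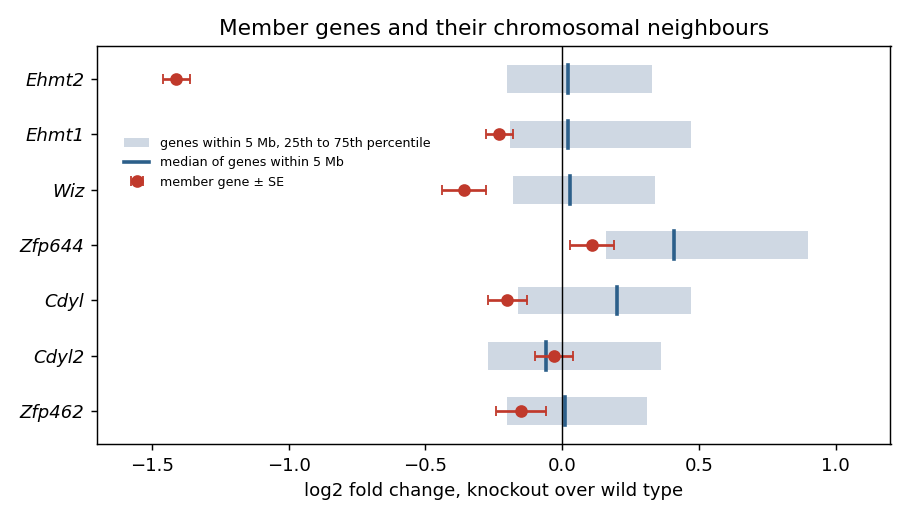
Log2 fold change, knockout over wild type, of each of the 7 genes (red points, bars are SE) over the range from the 25th to the 75th percentile (grey) and the median (blue) of tested genes within 5 Mb. Ehmt2 at -1.41 lies far left of its neighbours' median of 0.02, and Zfp644 at 0.11 lies left of a neighbour median of 0.41.

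The other genes of H3K9 methylation were counted by list. Of 10 tested H3K9 demethylases, 7 fell and none rose, with a median of -0.28; 23.6% of all genes tested fell, and their median was 0.00. The lowest p-values belonged to Kdm7a at 5.76 ± 0.513 CPM in the knockout against 11.3 ± 1.23 CPM in the wild type (log2 fold change -0.97), to Jmjd1c (-0.44) and to Phf8 (-0.48). Of the 4 other H3K9 methyltransferases, 2 fell, Setdb1 (-0.30) and Suv39h1 (-0.21), and Setdb2 (-0.24, adjusted p = 0.075) and Suv39h2 (-0.00, adjusted p = 0.967) did not pass.

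Of 9 reader and DNA methylation genes 3 fell, none rose and 6 did not pass. Over all genes tested, 23.6% fell and 23.6% rose. The maintenance methyltransferase Dnmt1 fell by 0.19, the de novo methyltransferase Dnmt3b fell by 1.04 to 4.03 ± 0.432 CPM in the knockout, against 8.30 ± 0.214 CPM in the wild type, and Mphosph8, a chromodomain reader of methylated H3K9, fell by 0.22. Of 14 tested recruiters and corepressors, 8 fell, 3 rose and 3 did not pass, beside the same 23.6% in each direction over all genes. Mga, a MAX partner of a Polycomb complex that holds G9a and GLP, fell by 0.93 to 60.6 ± 4.81 CPM in the knockout, against 115.2 ± 7.86 CPM in the wild type. Adnp, a zinc finger and homeobox protein that binds HP1, fell by 0.56, and the corepressor Ctbp1 rose by 0.50 on the log2 scale. Dnmt3b, Mga and Adnp lie on chromosome 2, whose tested genes had a median of -0.35. Ctbp1 lies on chromosome 5, whose tested genes had a median of 0.37. Whether these differences go with those of the chromosomes was not tested.

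By Pearson correlation of log2(CPM + 0.5) over the 8 libraries, the 5 of 8860 genes closest to Ehmt2 were Zcchc3 (0.9987), Aurka (0.9986), Isyna1 (0.9982), Itgb7 (0.9982) and Pmpca (0.9977). The 8 libraries form a pair of groups that stand apart, so these values describe the step between groups and no relation within one. Zcchc3, Aurka and Pmpca lie on chromosome 2, whose tested genes had a median log2 fold change of -0.35, and whether their steps go with it was not tested. The steps differed in size. Zcchc3, a zinc knuckle protein, averaged 36.6 ± 0.876 CPM in the knockout and 80.5 ± 2.82 CPM in the wild type, and Isyna1, the inositol phosphate synthase, 131.0 ± 3.46 CPM in the knockout and 384.8 ± 11.6 CPM in the wild type. Pmpca, a subunit of the mitochondrial processing peptidase, moved least, with 166.7 ± 0.593 CPM in the knockout and 201.1 ± 4.01 CPM in the wild type.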

How the data were processed

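Per the labels, total RNA was extracted with TRIzol and poly-A libraries were built with a SMARTer kit. FastQC, Trimmomatic, HISAT2 and GRCm38.p6 are listed in the submitters' processing notes, without versions or roles. What counted the reads, against which annotation and whether by strand is not given in the sources used here. Values in the deposited table are estimated counts per transcript, in whole numbers, not normalized, so none was rounded, and how reads shared by transcripts were divided is not known. Of 115220 transcripts, 114332 (99.23%) matched GENCODE mouse release 21. The 888 others, 0.148% to 0.17% of a library's counts, were left out. Without stated strand use, reads of overlapping or antisense genes cannot be told apart. The floors cover counting error only, while SD and SE reflect the spread between libraries.

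Counts were summed per gene, giving 47434 genes. Genes and transcripts were each tested over the whole table with edgeR 4.0.16 in R 4.3.3 (quasi-likelihood F test, TMM, filterByExpr, genotype only, two-sided, Benjamini-Hochberg). SE is the size of the log2 fold change over the square root of F. Fold changes are knockout over wild type, and a gene "fell" or "rose" at an adjusted p under 0.05. Usage within genes was tested with diffSpliceDGE, and with diffSplice of limma 3.58.1 after simulation. TPM came from counts and annotated transcript lengths. Transcripts with a mean of at least 1 CPM in either group were named, at most 6 per gene; from other lists, up to 3 genes with the lowest p; for likeness, officially named genes with at least 10 CPM. Alternatives used RLE factors, library sizes alone, other filters, DESeq2 1.42.0, limma-voom, protein-coding sums, a replicate block and each library left out. The 7 genes and the lists were chosen with earlier results of these data known. Exact permutation tests of shares covered 26 transcripts, of which 2 reached the smallest p. In simulated counts for the knockout and wild-type libraries, 92.5% of 1.5-fold and 100% of 2-fold gene changes were recovered (15929 genes), with 6.7% false calls. For transcripts (39644) these were 7.46% and 70.1%, with 5.6% false calls. For usage within genes (31713 transcripts), 34.3% of 2-fold changes were recovered with 22.6% false calls by diffSpliceDGE, and 46.3% with 5.33% false calls by limma's diffSplice. The simulation gave all genes the same fixed spread, all transcripts another, and changed few features. In the knockout the median coefficient of variation of the named transcripts ran from 9.6% for Cdyl2 to 108.2% for Wiz. The rates therefore hold for the simulated setting and may differ for these transcripts. Within groups, counts varied beyond sampling error between any pair of libraries (lowest chi-square over its degrees of freedom 10.94). Each entered as 1 replicate. One marker gene of the planned lists is not reported here.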

Additional observations from a re-analysis of the deposited data

Results flagged for a closer look

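In 82 groups of 4 libraries drawn from the genes, named transcripts and exon shares above, 7 had 1 library far from the other 3 by Dixon's 95% criterion; chance alone marks about 1 in 20 groups. Wild-type library 3 accounts for 5 of the 7. It was lowest for Wiz at 120.2 CPM and for the share of Cdyl counts from the downstream first exon at 91.0%, and highest for Wiz-204 at 6.88 CPM, Zfp644-205 at 38.7 CPM and Cdyl-201 at 2.02 CPM. Cdyl-201 and the Cdyl share come from the same counts. Knockout library 1 had 15.7 CPM of Wiz-202, where the other 3 knockout libraries had 0. Wild-type library 4 had the lowest share of Ehmt1 counts with an alternative exon of 144 bases, at 90.2%, against 97.5%, 96.4% and 96.6% in the other wild-type libraries. Without wild-type library 3, Wiz fell by 0.44 instead of 0.36 on the log2 scale, and Cdyl no longer passed (-0.22, adjusted p = 0.0512).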

How the results depend on the processing

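Ehmt2, Ehmt1 and Wiz kept their direction and their call in all alternatives with a test; with each library left out in turn, Ehmt2 lay between -1.44 and -1.37, Ehmt1 between -0.26 and -0.21 and Wiz between -0.44 and -0.30. Of 119 alternative values for the 7 genes, 103 were counted as unchanged, which for tested settings means the same direction and call. The 119 include the difference of each gene less its neighbours' median, which has no test and so no call to keep. Among those, Cdyl2 at 0.02 was counted as unchanged beside its main difference of -0.03. Cdyl lost its call with library sizes alone (-0.12), with every feature of at least 1 read (-0.20), at a mean of 1 CPM (-0.18), over protein-coding transcripts (-0.19) and without single libraries (-0.24 to -0.16). Less its neighbours' median, Cdyl was at -0.40 and Zfp644 at -0.31. Cdyl2 turned sign with library sizes alone (0.05) and without single libraries (-0.09 to 0.01). Deviations from the group means correlated between -0.0226 and 0.0751 for same-numbered libraries, the highest for the third libraries. For the other pairs of a knockout and a wild-type library they correlated between -0.0597 and 0.0577. The labels name no batch shared by libraries of the same number, and whether they shared one was not tested further. With the replicate block, Zfp462 passed (-0.16), Ehmt2-203 did not (-1.46, adjusted p = 0.0522), and 1842 transcripts were called in place of 4284. DESeq2 called 6866. Zfp462 ranged from -0.22 to -0.07 without single libraries. Usage calls numbered 51 by diffSpliceDGE, 344 with every feature of at least 1 read, 86 to 135 without single libraries and 740 by limma's diffSplice. Without single libraries some uncalled transcripts turned sign: Ehmt1-210 (-0.06 to 0.16), Ehmt1-201 (-0.42 to 0.21), Wiz-210 (-0.08 to 0.68), Zfp644-218 (-0.06 to 0.24), Zfp462-202 (-0.39 to 0.12) and Cdyl2-201 (-0.07 to 0.04; 0.05 with library sizes alone, 0.01 at 1 CPM, 0.00 by limma-voom). Usage differences that turned sign were those of Ehmt2-203 (-0.20 to 0.14), Ehmt2-201 (-0.88 to 0.12), Ehmt1-201 (-0.22 to 0.40; 0.00 under library sizes and both filters; 0.04 with the replicate block), Zfp644-218 (-0.19 to 0.05), Zfp462-203 (-0.01 to 0.02; -0.00 at 1 CPM) and Zfp462-202 (-0.20 to 0.26; -0.01 with the replicate block). The share of Wiz-207 differed by -3.15 percentage points over all transcripts and by 9.97 over protein-coding transcripts alone. The cause was not tested for any of these. Of simulated 1.5-fold changes of transcripts 7.46% were recovered, so smaller differences could be missed; the part of depth in this was not tested.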
